A study of Mus musculus with 12 samples.

Results

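Mitochondrial and peroxisomal fatty acid oxidation was followed through 35 named genes, picked by their known roles with earlier results of these data in view, from the activation of fatty acids to the last thiolase step of each organelle. Of these, 33 had a probe set that the platform annotation gives to 1 gene symbol, out of 22180 genes measured in that way. Acsl1 and Cpt1b had none and were not analysed here. Each gene was read from its probe set with the highest mean over the 12 arrays, and Crat was the only one with a second.

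The arrays held RNA of mouse brown adipose tissue, in 4 groups of 3 mice, all fasted for 5 h. The KO arrays came from mice with floxed Sel1L (Sel1L f/f) and the Adiponectin-Cre transgene B6.FVB-Tg(Adipoq-cre)1Evdr/J, and the WT arrays from Sel1L f/f littermates. Both genotypes were on the C57BL/6J background and were kept either at 4 °C or at room temperature during the fast. Sel1L is the adaptor protein of the Hrd1 ubiquitin ligase, which removes misfolded proteins from the endoplasmic reticulum, and the Cre is driven by a gene of adipocytes, brown and white alike. Ages and sexes are not in the labels used here. The labels name whole tissue, while the series' design text names isolated brown adipocytes.

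In beta-oxidation, a fatty acid is first joined to coenzyme A. In mitochondria it enters as a carnitine ester through the carnitine shuttle and is then shortened in repeated cycles by an acyl-CoA dehydrogenase, a hydratase, a hydroxyacyl-CoA dehydrogenase and a thiolase. Electrons from the first of these steps pass to the respiratory chain through the electron transfer flavoprotein and its dehydrogenase. Peroxisomes shorten very long and branched chains with a separate set of enzymes and hand the products on as carnitine esters. Brown fat burns fatty acids in this way to fuel heat production, and the pathway is regulated by PPAR alpha and PGC-1 alpha.

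Values are log2 expression on the RMA scale, where a difference of 1 is a doubling of the reading. A gene is called where its adjusted p in limma is under 0.05, differences are given with the standard error (SE) of the fit, and n is 3 arrays per group throughout. Medians of the 12 arrays lay between 2.03 and 2.09, pairs of arrays correlated across probe sets at r of 0.968 to 0.993, and 0 pairs were identical. Sel1l itself read 6.90, 6.73 and 6.54 in KO, against 6.99, 6.69 and 7.04 in WT at 4 °C, and 6.18, 6.09 and 5.92 in KO, against 7.37, 6.96 and 7.23 in WT at room temperature. It was called lower in KO at room temperature (-1.12 ± 0.14, adjusted p = 0.00114) and not at 4 °C (-0.19 ± 0.14, adjusted p = 0.605), so this reading does not check the KO label at 4 °C. KO stands here for the arrays labelled as such. Probe positions relative to the deleted part were not used here. WT replicate 3 at room temperature carries a source name that says 4 °C, against a title and a temperature field that say room temperature, and it was kept at room temperature. It read 8.17 for Ppargc1a (PGC-1 alpha), 8.60 for Dio2 and 9.49 for Elovl3. The other WT arrays at room temperature read 8.08 and 7.26, 8.92 and 7.42, and 9.64 and 9.46. WT arrays at 4 °C read 10.94 to 11.49, 10.81 to 11.18 and 11.32 to 11.40. On these 3 genes the array thus lay with room temperature. Ucp1, the uncoupling protein of brown adipocytes, read 12.38 to 12.83 on all 12 arrays, and all 11 brown adipocyte markers were measured.

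Most fatty acid oxidation genes had lower readings in the arrays labelled KO than in WT at both temperatures, by differences that mostly did not pass the test at either temperature. At 4 °C, 4 of the 33 were called lower in KO (Acsl5, Crat, Acads and Hadha) and 0 higher, against a background of 2.19% of all 23521 probe sets called lower and 3.61% higher, and of 5.37% lower among the 8265 probe sets with a mean of at least 4, as all 33 have. At room temperature 2 were called lower (Acads and Hadh) and 0 higher, where 0.429% of all probe sets were called lower and 1.29% higher, and 0.907% of those with a mean of at least 4 lower. The median difference of the 33 genes was -0.19 at 4 °C and -0.25 at room temperature, with a negative difference for 28 of them at 4 °C and 29 at room temperature. Over all probe sets the median was -0.01 at both. With the temperatures averaged, 8 genes were called lower in KO and 0 higher (background 2.73% lower and 4.24% higher, and 6.53% lower with a mean of at least 4), with a median of -0.24. The 8 were Acsl5, Slc25a20, Crat, Acadvl, Acads, Acad11, Hadh and Acaa2, and Slc25a20, Acadvl, Acads and Acad11 kept their calls in every alternative fit and with any array left out. If the RNA came from whole tissue, as the labels say, fewer cells of a type and less RNA per cell cannot be told apart. At 4 °C the count of 4 dropped to 1 without WT replicate 1 or any of the 3 KO arrays at 4 °C, and to 2 without WT replicate 3 at 4 °C. At room temperature the count of 2 dropped to 0 without WT replicate 1 or 3 or KO replicate 2 or 3 at room temperature, and to 1 without WT replicate 2 or KO replicate 1 at room temperature or KO replicate 3 at 4 °C.

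Skeletal muscle markers had lower mean readings in KO, without passing the test. Their mean per array (17 of 17 measured) was 2.33 to 6.44 in KO and 4.61 to 7.76 in WT at 4 °C, and 2.66 to 6.13 in KO and 6.19 to 7.09 in WT at room temperature. None of the 17 was called in any comparison by limma, 0 had an unadjusted p under 0.05 at 4 °C and 11 did at room temperature, and their median difference was -0.98 at 4 °C and -2.29 at room temperature. With the muscle mean as a covariate, the count of lower genes was 2 at 4 °C, 0 at room temperature and 5 over both temperatures. The 4 white adipocyte markers averaged 4.04 to 4.17 in KO and 4.31 to 5.10 in WT at 4 °C, and 4.12 to 4.59 in KO and 4.76 to 5.52 in WT at room temperature. Of these 4 (Nnat, Lep, Retn and Agt), 1 was called lower in KO at 4 °C, 0 at room temperature and 2 over both. Their medians were -0.61, -0.53 and -0.72, in that order. Of all probe sets, 2.19%, 0.429% and 2.73% were called lower. The 11 brown adipocyte markers averaged 10.31 to 10.33 in KO and 10.47 to 10.51 in WT at 4 °C, without overlap, and 10.15 to 10.31 in KO and 10.01 to 10.24 in WT at room temperature. At 4 °C 9 of the 11 had a negative difference and 1, Pparg, was called lower in KO. The 5 endothelial markers had a median difference of -0.18 at 4 °C, all 5 negative, and of -0.33 at room temperature, 4 negative, with 0 called at either. The 5 macrophage markers had medians of -0.05 at 4 °C and 0.04 at room temperature. For the 5 fibroblast markers they were -0.01 and 0.10, with 0 of either list called between genotypes. The part of white and brown adipocytes and endothelium in the results was not tested.

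**Figure D1:**
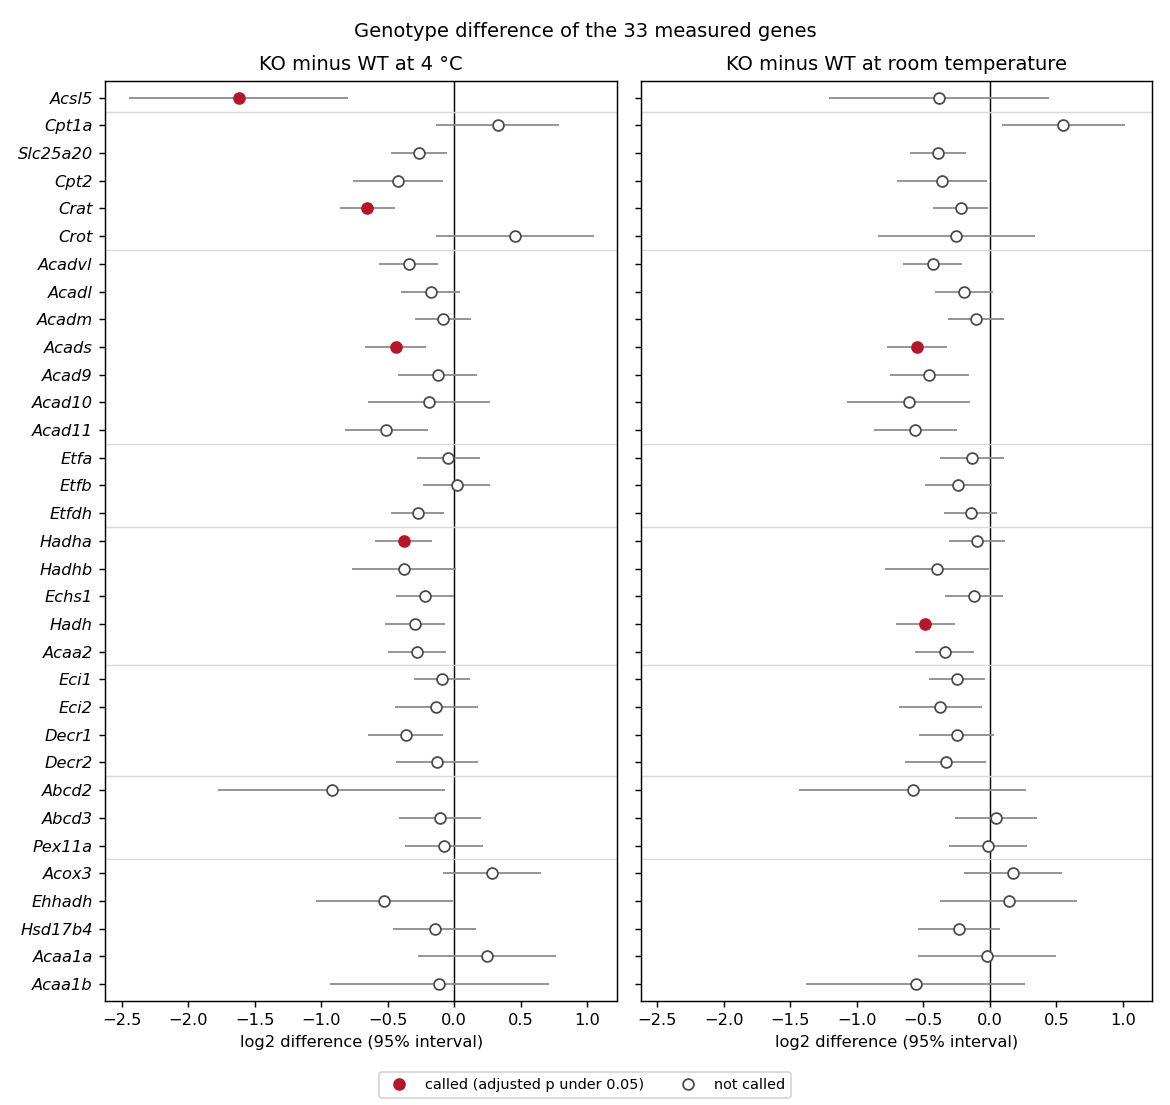
Log2 difference, KO minus WT, of the 33 measured fatty acid oxidation genes at 4 °C (left) and at room temperature (right). Points are limma estimates with 95% intervals, filled where called, and grey lines separate the roles in the pathway. Most points lie left of 0, with 4 filled at 4 °C and 2 at room temperature.

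More of these genes were called lower in the cold than in KO, and so were more of all probe sets. Averaged over the other factor, 19.7% of probe sets with a mean of at least 4 were called lower in the cold and 6.53% in KO. Over both genotypes, 16 of the 33 were called lower at 4 °C and 0 higher, against 10.1% of all probe sets called lower and 7.51% higher and 19.7% of those with a mean of at least 4 lower, and the median difference was -0.29. In KO, 6 genes were called lower (Crat, Crot, Acad11, Abcd2, Abcd3 and Acox3) and 0 higher (background 4.70% lower and 4.32% higher, and 9.38% lower with a mean of at least 4), with a median of -0.22. In WT, 7 were called lower (Crot, Acad11, Hadh, Eci1, Eci2, Decr2 and Acox3) and 0 higher (background 6.23% lower and 4.85% higher, and 12.6% lower with a mean of at least 4), with a median of -0.36. Over all probe sets each of these 3 medians was -0.01. With a mean of at least 4 they were -0.041 over both genotypes, -0.035 in KO and -0.045 in WT. Crot, Acad11 and Acox3 were called in both genotypes. The 2 genotypes' arrays are separate mice, while each cold comparison shares its arrays with the genotype comparisons. The muscle markers had median cold differences of 0.66 in KO and -0.79 in WT, and with their mean as a covariate 5 of the 6 calls in KO, all 7 in WT and 15 of the 16 over both genotypes were kept. The count of 7 in WT dropped to 3 without WT replicate 1 at room temperature or WT replicate 2 at 4 °C, to 4 without WT replicate 2 at room temperature, and reached 11 without WT replicate 3 at 4 °C. With the WT array of conflicting label placed at 4 °C it was 0, as were the calls over all probe sets, and the count in KO was then 1. That setting moves an array whose Ppargc1a, Dio2 and Elovl3 readings, given above, lay with room temperature. The KO count of 6 dropped to 2 without KO replicate 2 at room temperature, to 3 without KO replicate 3 at room temperature or any KO array at 4 °C, and to 4 without WT replicate 1 or 2 at room temperature or WT replicate 1 at 4 °C.

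**Figure D2:**
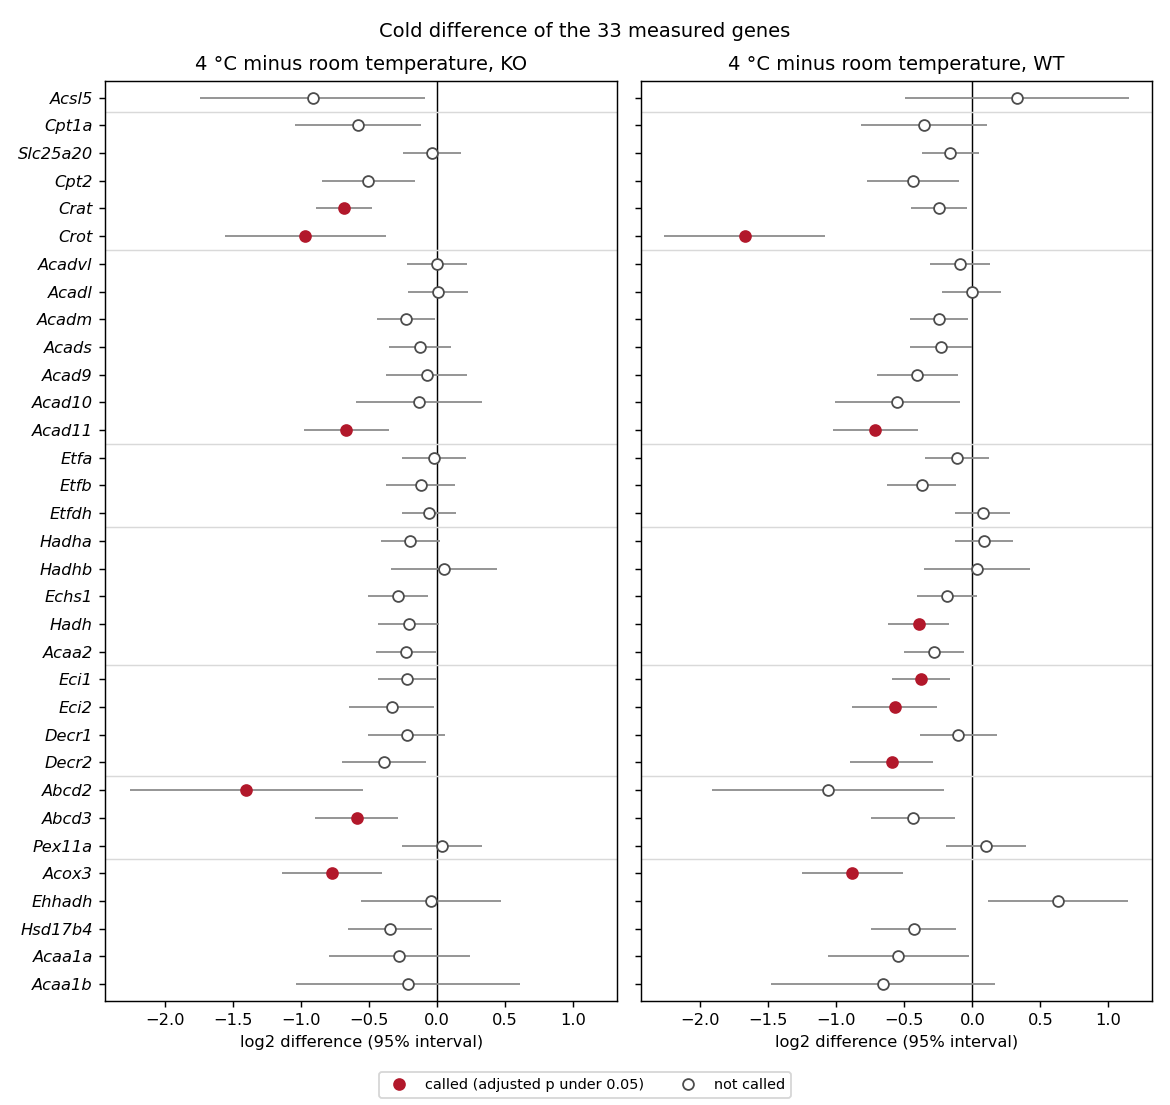
Log2 difference, 4 °C minus room temperature, of the same 33 genes in KO (left) and in WT (right), with 95% intervals from limma and filled points where called. The lowest estimates are those of Abcd2 in KO and Crot in WT, and 0 genes were called higher in either genotype.

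Of the named activation genes only Acsl5, a long-chain acyl-CoA synthetase, was read. Acsl1 was not analysed, so Acsl5 does not stand for activation as a whole. Acsl5 read 6.05, 6.53 and 6.70 in KO, against 8.42, 7.02 and 8.71 in WT at 4 °C, and 7.20, 7.99 and 6.84 in KO, against 7.73, 7.60 and 7.84 in WT at room temperature. At 4 °C every KO array lay below every WT array, and at room temperature the groups overlapped. The difference was -1.62 ± 0.38 at 4 °C (adjusted p = 0.0248), -0.38 ± 0.38 at room temperature (adjusted p = 0.762) and -1.0 ± 0.27 over both (adjusted p = 0.0425). The call at 4 °C was lost when any single one of 5 arrays was left out, the adjusted p reaching 0.105 without WT replicate 1 at 4 °C, and in 2 of 10 other settings. The call over both temperatures was lost without any of 10 arrays and in 5 of 9 settings, among them the muscle covariate (adjusted p = 0.239).

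The carnitine shuttle held Cpt1a and Cpt2, the outer and inner carnitine palmitoyltransferases, Slc25a20, the carnitine-acylcarnitine carrier between them, and Crat and Crot, which move short and medium acyl groups onto carnitine in mitochondria and peroxisomes. Of the 5, 1 was called lower in KO at 4 °C, 0 at room temperature and 2 over both, while 4 were called lower in the cold over both genotypes. Of probe sets with a mean of at least 4, 5.37%, 0.907%, 6.53% and 19.7% were called lower, in that order.

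Crat read 9.69, 9.75 and 9.81 in KO, against 10.40, 10.31 and 10.50 in WT at 4 °C, and 10.46, 10.41 and 10.42 in KO, against 10.60, 10.61 and 10.74 in WT at room temperature. The 3 KO arrays at 4 °C stood apart below all others, and at room temperature the KO arrays lay just below the WT arrays. It was lower in KO at 4 °C (-0.65 ± 0.10, adjusted p = 0.00102) and over both temperatures (-0.44 ± 0.07, adjusted p = 0.00145), and lower in the cold in KO (-0.68 ± 0.10, adjusted p = 0.000911). The second Crat probe set fell in the cold in KO (-0.83, adjusted p = 0.00799) but differed by -0.20 between genotypes at 4 °C (adjusted p = 0.645) and by 0.00 over both temperatures (adjusted p = 0.999). With the mean of both probe sets, the adjusted p of the genotype difference was 0.0625 at 4 °C and 0.176 over both.

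Slc25a20 read 10.11, 10.14 and 10.06 in KO, against 10.45, 10.37 and 10.28 in WT at 4 °C, and 10.12, 10.24 and 10.06 in KO, against 10.62, 10.51 and 10.46 in WT at room temperature. KO arrays lay below WT arrays at both temperatures, with little difference between temperatures (-0.10 ± 0.07, adjusted p = 0.416), and the genotype difference over both was -0.33 ± 0.07 (adjusted p = 0.0116). Crot read 6.31, 6.36 and 6.18 in KO, against 5.95, 5.22 and 6.32 in WT at 4 °C, and 6.73, 7.72 and 7.31 in KO, against 7.67, 7.61 and 7.22 in WT at room temperature. All 6 arrays at 4 °C lay below all 6 at room temperature. Crot was lower in the cold in KO (-0.97 ± 0.27, adjusted p = 0.0447) and in WT (-1.67 ± 0.27, adjusted p = 0.00213), folds of 1.96 and 3.19. The call in KO was lost without any of 9 arrays, up to an adjusted p of 0.173 without KO replicate 2 at room temperature, and in 5 of 10 other settings, while that in WT was kept without each of the 12.

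Cpt2 read 8.43, 8.72 and 8.60 in KO, against 9.04, 8.68 and 9.30 in WT at 4 °C, and 8.98, 9.25 and 9.04 in KO, against 9.59, 9.48 and 9.28 in WT at room temperature. Cpt2 was lower in the cold over both genotypes (-0.47 ± 0.11, adjusted p = 0.00966), and its genotype difference over both temperatures was -0.39 ± 0.11 (adjusted p = 0.0539). Cpt1a is the liver-type enzyme of the rate-controlling step, and Cpt1b of the same step was not analysed. It read 5.53, 5.56 and 5.57 in KO, against 5.14, 4.87 and 5.68 in WT at 4 °C, and 5.86, 6.56 and 5.99 in KO, against 5.85, 5.49 and 5.42 in WT at room temperature. Cpt1a was the 1 gene of the 33 whose KO arrays all lay above the WT arrays at room temperature (8.76% of all probe sets did so), a difference of 0.55 ± 0.21 that was not called (adjusted p = 0.272). In the cold it was lower over both genotypes (-0.47 ± 0.15, adjusted p = 0.0488), a call lost without any of 10 arrays and in 5 of 9 settings.

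**Figure D3:**
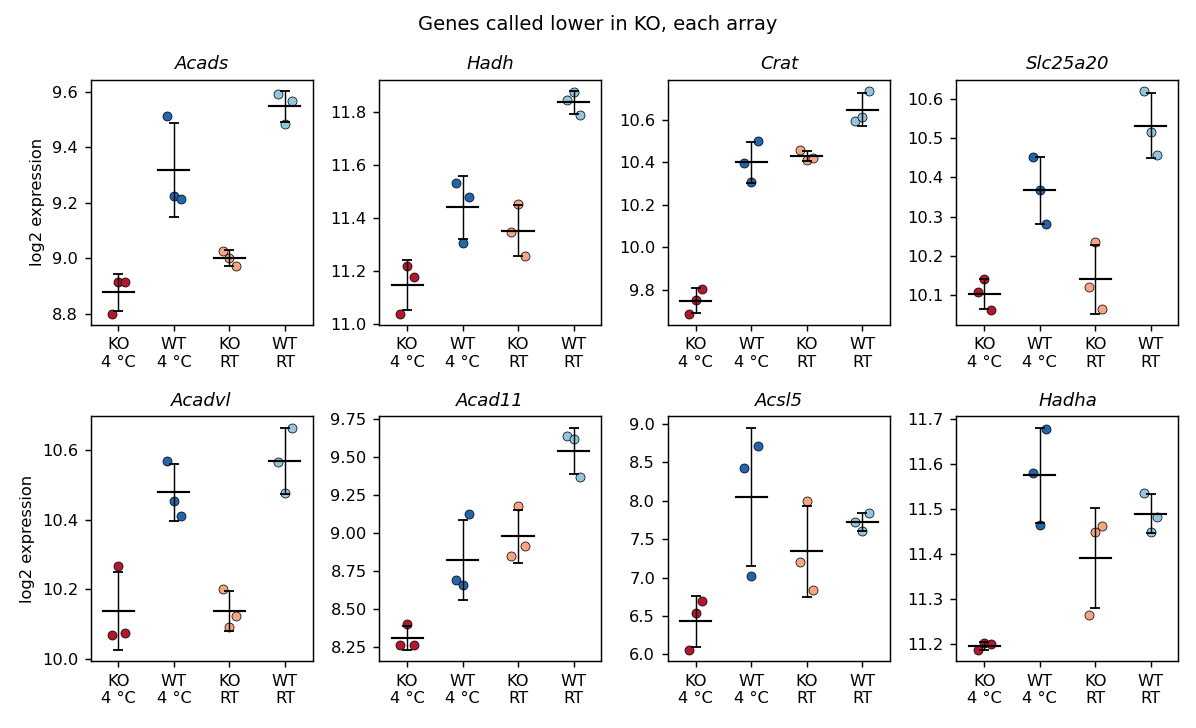
Log2 expression on each of the 12 arrays for 8 of the genes called lower in KO (Acads, Hadh, Crat, Slc25a20, Acadvl, Acad11, Acsl5 and Hadha), by genotype and temperature. Points are arrays and bars are the mean ± SD of 3. The KO arrays lie below the WT arrays at both temperatures for 6 of them, and overlap with them at room temperature for Acsl5 and Hadha.

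The acyl-CoA dehydrogenases take acyl chains of different lengths, with Acadvl for very long, Acadl for long, Acadm for medium and Acads for short chains, and Acad9, Acad10 and Acad11 as related family members. Of these 7, 1 was called lower in KO at each temperature, Acads, and 3 over both. Among probe sets with a mean of at least 4, the shares called lower were 5.37% at 4 °C, 0.907% at room temperature and 6.53% over both. Acads read 8.80, 8.92 and 8.91 in KO, against 9.51, 9.22 and 9.21 in WT at 4 °C, and 9.03, 9.0 and 8.97 in KO, against 9.59, 9.48 and 9.57 in WT at room temperature. The KO arrays lay well below the WT arrays at both temperatures, with differences of -0.44 ± 0.10 at 4 °C (adjusted p = 0.0266), -0.55 ± 0.10 at room temperature (adjusted p = 0.0189) and -0.49 ± 0.07 over both (adjusted p = 0.00112), the last a 1.41-fold lower reading. At each temperature by itself the call was lost without any of 4 arrays, with adjusted p up to 0.111 at 4 °C and 0.0732 at room temperature, both without WT replicate 1 of that temperature, and with the muscle covariate (adjusted p = 0.0501 at 4 °C and 0.114 at room temperature).

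Acadvl read 10.07, 10.27 and 10.08 in KO, against 10.57, 10.45 and 10.41 in WT at 4 °C, and 10.20, 10.09 and 10.12 in KO, against 10.57, 10.48 and 10.66 in WT at room temperature. The groups did not overlap by genotype at either temperature, and the difference was -0.39 ± 0.07 over both (adjusted p = 0.00536), with -0.05 ± 0.07 between temperatures (adjusted p = 0.776). Acad11, which in mouse and human acts on long and very long chains, read 8.27, 8.41 and 8.26 in KO, against 8.69, 8.66 and 9.13 in WT at 4 °C, and 8.85, 9.18 and 8.91 in KO, against 9.64, 9.62 and 9.37 in WT at room temperature. It fell with both factors, in KO over both temperatures (-0.54 ± 0.10, adjusted p = 0.00603), in the cold in KO (-0.67 ± 0.14, adjusted p = 0.0117) and in the cold in WT (-0.72 ± 0.14, adjusted p = 0.00685). The call in KO was lost without KO replicate 2 at room temperature (adjusted p = 0.0548).

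Acadm read 11.88, 11.73 and 11.84 in KO, against 11.91, 11.88 and 11.91 in WT at 4 °C, and 11.97, 12.05 and 12.11 in KO, against 12.26, 12.05 and 12.14 in WT at room temperature. Acadm was lower in the cold over both genotypes (-0.24 ± 0.07, adjusted p = 0.0300), a call lost without any of 7 arrays, and its genotype difference was -0.10 ± 0.07 (adjusted p = 0.517). Acadl, Acad9 and Acad10 were called in 0 of the 7 comparisons. Acadl read 11.30 to 11.59 in KO and 11.62 to 11.68 in WT at 4 °C, and 11.38 to 11.52 in KO and 11.61 to 11.69 in WT at room temperature, without overlap at either.

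No gene of electron transfer from these dehydrogenases passed the test. Etfa and Etfb, the subunits of the electron transfer flavoprotein, and Etfdh, its dehydrogenase, were called in 0 of the 7 comparisons. Etfa spanned 10.62 to 10.94 and Etfb 10.04 to 10.71 over all 12 arrays. Etfdh read 10.93, 10.98 and 10.86 in KO, against 11.28, 11.20 and 11.12 in WT at 4 °C, and 11.00, 10.96 and 10.99 in KO, against 11.19, 11.10 and 11.09 in WT at room temperature. Its KO arrays lay below its WT arrays at both temperatures, by -0.21 ± 0.06 over both (adjusted p = 0.0789).

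The remaining mitochondrial steps are carried by Hadha and Hadhb, the subunits of the trifunctional protein for long chains, by Echs1, a hydratase, Hadh, a hydroxyacyl-CoA dehydrogenase, and Acaa2, a thiolase, for shorter ones. Hadha and Hadhb are transcribed in opposite directions from start sites 273 bases apart, so that the windows 250 bases before each start share 228 bases. The Hadha window of the RefSeq table (build GRCm38.p6, chr5:30154981-30155230, minus strand) is shown because 1 stretch serves both genes, with the bases that also lie in the Hadhb window in capitals.
Hadha: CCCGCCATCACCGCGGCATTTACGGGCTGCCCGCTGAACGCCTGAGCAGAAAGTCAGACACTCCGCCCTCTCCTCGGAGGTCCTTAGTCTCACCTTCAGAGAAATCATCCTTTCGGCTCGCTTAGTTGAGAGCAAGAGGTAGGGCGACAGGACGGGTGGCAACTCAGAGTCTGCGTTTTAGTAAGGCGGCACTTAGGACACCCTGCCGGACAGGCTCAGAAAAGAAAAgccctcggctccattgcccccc

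Hadha read 11.19, 11.20 and 11.20 in KO, against 11.58, 11.47 and 11.68 in WT at 4 °C, and 11.26, 11.45 and 11.46 in KO, against 11.53, 11.45 and 11.48 in WT at room temperature. It was lower in KO at 4 °C (-0.38 ± 0.10, adjusted p = 0.0424), a call lost without any of 10 arrays (adjusted p up to 0.124) and in 6 of 10 settings, among them the muscle covariate (0.0699) and median-centred arrays, and the difference at room temperature, where the groups overlapped, was -0.10 ± 0.10 (adjusted p = 0.770). Hadhb was read by a probe set at 3.85 to 4.71 on all arrays, and its difference at 4 °C was -0.38 ± 0.18 (adjusted p = 0.316). The level of Hadhb cannot be set against that of Hadha, since they are different probe sets.

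Hadh read 11.04, 11.22 and 11.18 in KO, against 11.53, 11.31 and 11.48 in WT at 4 °C, and 11.35, 11.45 and 11.26 in KO, against 11.85, 11.87 and 11.79 in WT at room temperature. The KO arrays lay below the WT arrays at both temperatures, with differences of -0.48 ± 0.10 at room temperature (adjusted p = 0.0346), -0.29 ± 0.10 at 4 °C (adjusted p = 0.142) and -0.39 ± 0.07 over both (adjusted p = 0.00558). The room temperature call was lost without any of 7 arrays (adjusted p up to 0.124), and the muscle covariate moved the adjusted p to 0.222 at room temperature and 0.0501 over both. The cold difference of Hadh was -0.21 ± 0.10 in KO, not called (adjusted p = 0.290), and -0.40 ± 0.10 in WT, called lower (adjusted p = 0.0269), a call lost without any of 4 arrays (adjusted p up to 0.112) and in 2 of 10 settings.

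Acaa2 read 10.88, 11.01 and 10.85 in KO, against 11.27, 11.09 and 11.22 in WT at 4 °C, and 11.04, 11.16 and 11.22 in KO, against 11.57, 11.45 and 11.41 in WT at room temperature. Acaa2 was lower in KO over both temperatures (-0.31 ± 0.07, adjusted p = 0.0201), which was lost without any of 3 arrays and with the muscle covariate (0.0864), and lower in the cold over both genotypes (-0.26 ± 0.07, adjusted p = 0.0252), lost without any of 6 arrays (adjusted p up to 0.0641) and in 2 of 9 settings. Echs1 read 9.96, 9.96 and 10.01 in KO, against 10.21, 10.12 and 10.26 in WT at 4 °C, and 10.13, 10.30 and 10.36 in KO, against 10.46, 10.41 and 10.28 in WT at room temperature. Its cold difference over both genotypes was -0.24 ± 0.07 (adjusted p = 0.0358, lost without any of 9 arrays), and its genotype difference was -0.17 ± 0.07 (adjusted p = 0.209).

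Unsaturated fatty acids need auxiliary enzymes, the enoyl-CoA isomerases Eci1 and Eci2 and the dienoyl-CoA reductases Decr1 of mitochondria and Decr2 of peroxisomes. Of these 4, 0 were called between genotypes and 3 were lower in the cold in WT, where 12.6% of probe sets with a mean of at least 4 were. Eci1 read 9.59, 9.69 and 9.72 in KO, against 9.73, 9.72 and 9.81 in WT at 4 °C, and 9.90, 9.82 and 9.94 in KO, against 10.22, 10.01 and 10.18 in WT at room temperature. All 6 arrays at 4 °C lay below all 6 at room temperature, with differences of -0.22 ± 0.10 in KO (adjusted p = 0.215) and -0.38 ± 0.10 in WT (adjusted p = 0.0253).

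Decr2 read 8.21, 8.35 and 8.43 in KO, against 8.41, 8.29 and 8.68 in WT at 4 °C, and 8.61, 8.92 and 8.64 in KO, against 9.21, 9.12 and 8.82 in WT at room temperature. Eci2 read 7.04, 7.30 and 7.16 in KO, against 7.32, 7.06 and 7.52 in WT at 4 °C, and 7.39, 7.72 and 7.39 in KO, against 7.83, 8.04 and 7.75 in WT at room temperature. In KO the cold difference was -0.39 ± 0.14 for Decr2 (adjusted p = 0.122) and -0.33 ± 0.14 for Eci2 (adjusted p = 0.205), neither called. In WT it was -0.59 ± 0.14 for Decr2 (adjusted p = 0.0169) and -0.57 ± 0.14 for Eci2 (adjusted p = 0.0224), both called lower. The WT calls of Eci1, Decr2 and Eci2 were each lost without any of 4 arrays, with adjusted p up to 0.0971. Decr1 was called in 0 of the 7 comparisons and spanned 7.26 to 7.94.

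**Figure D4:**
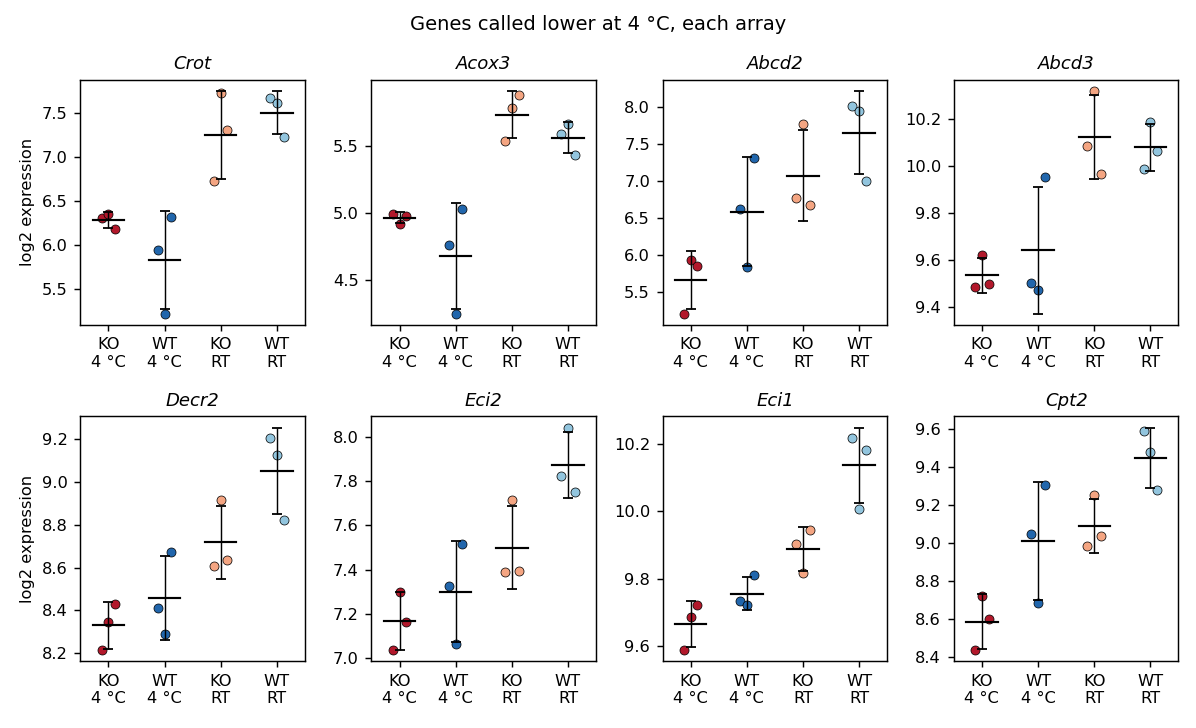
Log2 expression on each of the 12 arrays for Crot, Acox3, Abcd2, Abcd3, Decr2, Eci2, Eci1 and Cpt2, which were called lower at 4 °C over both genotypes. Points are arrays and bars are the mean ± SD of 3. For Crot, Acox3, Abcd3 and Eci1 every array at 4 °C lies below every array at room temperature.

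Import into peroxisomes was represented by Abcd2 and Abcd3, ABC transporters of very long chain and of branched acyl-CoAs, and by Pex11a, a peroxisome proliferation factor. Abcd2 read 5.21, 5.93 and 5.85 in KO, against 6.62, 5.84 and 7.30 in WT at 4 °C, and 6.76, 7.77 and 6.67 in KO, against 8.01, 7.94 and 7.0 in WT at room temperature. Abcd2 was lower in the cold in KO (-1.40 ± 0.39, adjusted p = 0.0439), a call lost without any of 9 arrays and in 5 of 10 settings, and over both genotypes (-1.23 ± 0.28, adjusted p = 0.00771). Abcd3 read 9.48, 9.62 and 9.49 in KO, against 9.50, 9.47 and 9.95 in WT at 4 °C, and 10.09, 10.32 and 9.97 in KO, against 9.99, 10.18 and 10.06 in WT at room temperature. All arrays at 4 °C lay below those at room temperature, and the difference was -0.59 ± 0.14 in KO (adjusted p = 0.0199) and -0.44 ± 0.14 in WT (adjusted p = 0.0694). The call in KO was lost without any of 3 arrays (adjusted p up to 0.0892). Pex11a was called in 0 comparisons and spanned 7.0 to 7.47.

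Among the 5 enzymes of peroxisomal oxidation, Acox3, an acyl-CoA oxidase for branched chains, was called lower in the cold in both genotypes. Acox3 read 4.99, 4.92 and 4.98 in KO, against 4.76, 4.25 and 5.03 in WT at 4 °C, and 5.54, 5.78 and 5.88 in KO, against 5.59, 5.67 and 5.43 in WT at room temperature. All 6 arrays at 4 °C lay below all 6 at room temperature, with differences of -0.77 ± 0.17 in KO (adjusted p = 0.0131) and -0.88 ± 0.17 in WT (adjusted p = 0.00531), folds of 1.71 and 1.84. In KO the call was lost without KO replicate 3 at room temperature (adjusted p = 0.0542) or KO replicate 2 at 4 °C. Hsd17b4, the bifunctional enzyme for branched chains, read 8.85, 8.98 and 8.74 in KO, against 9.06, 8.80 and 9.15 in WT at 4 °C, and 9.10, 9.41 and 9.10 in KO, against 9.39, 9.67 and 9.24 in WT at room temperature. It was lower in the cold over both genotypes (-0.39 ± 0.10, adjusted p = 0.0174).

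Ehhadh, the bifunctional enzyme for straight chains, read 9.41, 9.49 and 9.36 in KO, against 9.41, 9.97 and 10.47 in WT at 4 °C, and 9.39, 9.72 and 9.27 in KO, against 9.0, 9.69 and 9.27 in WT at room temperature. It was the only gene of the 33 with a cold difference above 0.5 in WT (0.63 ± 0.24, adjusted p = 0.124), and its difference in KO was -0.04 ± 0.24 (adjusted p = 0.959). Neither was called, and the interaction of -0.67 ± 0.34 (95% interval -1.40 to 0.06) was not called. The thiolases Acaa1a and Acaa1b were called in 0 comparisons and spanned 4.35 to 5.61 and 3.98 to 5.94.

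Promoters of Crot, Acad11 and Acox3, the genes called lower in the cold in both genotypes, are shown as the 250 bases before the RefSeq start (build GRCm38.p6). Crot lies at chr5:8997147-8997396 on the minus strand, Acad11 at chr9:104063474-104063723 on the plus strand and Acox3 at chr5:35582784-35583033 on the plus strand. Capitals mark TGACG, the core of the cAMP response element, searched on both strands.
Crot: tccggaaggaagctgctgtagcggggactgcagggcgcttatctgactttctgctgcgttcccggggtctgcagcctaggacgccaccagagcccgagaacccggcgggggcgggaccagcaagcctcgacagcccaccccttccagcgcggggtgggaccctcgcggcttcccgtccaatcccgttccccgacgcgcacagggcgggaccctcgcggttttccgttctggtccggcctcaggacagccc
Acad11: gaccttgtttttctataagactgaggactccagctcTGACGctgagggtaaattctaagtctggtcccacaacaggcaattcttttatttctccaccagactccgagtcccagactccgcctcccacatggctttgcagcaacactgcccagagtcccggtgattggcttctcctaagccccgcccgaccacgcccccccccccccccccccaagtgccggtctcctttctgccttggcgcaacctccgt
Acox3: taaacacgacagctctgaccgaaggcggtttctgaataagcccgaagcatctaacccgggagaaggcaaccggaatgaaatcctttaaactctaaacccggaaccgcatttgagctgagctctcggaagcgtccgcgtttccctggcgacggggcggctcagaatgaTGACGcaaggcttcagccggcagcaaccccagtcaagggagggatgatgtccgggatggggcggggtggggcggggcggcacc
The Acad11 and Acox3 windows hold 1 TGACG each and the Crot window 0.

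Promoter windows of 300 bases, 50 of them after the start, were found for 27 of the 33 genes, as 28 windows. TGACG lay in 8 of them (28.6%), against 20.8% of all 32851 windows, and the full element TGACGTCA, which contains it, in 0, against 1.79%. The nuclear receptor core site AGGTCA lay in 4 (14.3%; Acadm, Acadvl, Cpt1a and Echs1), against 16.3% of all windows, and TCAAGGTCA, which contains it and is bound by estrogen-related receptors, in 0, against 0.423%. All motifs were searched on both strands. A match describes these letters only.

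Across the 33 genes, 15 had KO arrays that all lay below the WT arrays at 4 °C (10.7% of all probe sets and 17.9% of those with a mean of at least 4) and 13 at room temperature (8.62% and 12.3%). In 10 genes this held at both temperatures (2.05% of all probe sets and 4.72% of those with a mean of at least 4), namely Slc25a20, Crat, Acadvl, Acadl, Acads, Acad11, Etfdh, Hadh, Acaa2 and Eci1. Within this list these are genes of the shuttle and of mitochondrial steps, apart from Acad11, which has also been placed in peroxisomes. The pattern is not particular to mitochondrial genes. Among other listed genes, the peroxisomal Hacl1, Scp2, Pex6, Lonp2 and Cat, given as examples, showed it too. Others did not: Pex5, Pex13 and Pex16 overlapped at both temperatures. The KO arrays of Pex11g and Acsl4 all lay above the WT arrays at both. Of all 33, 26 had KO means below WT means at both temperatures, against 30.7% of all probe sets and 34.3% of those with a mean of at least 4. By temperature, 20 genes in KO had 4 °C arrays all below the room temperature arrays (14.1% of all probe sets and 22.7% of those with a mean of at least 4), and 17 in WT did (14.3% and 23.5%), while 0 had them all above.

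Whether the cold difference depended on genotype was tested as an interaction, KO cold difference minus WT cold difference. None of the 33 was called by limma, against 0.0765% of all probe sets called lower and 0.230% higher and 0.181% of those with a mean of at least 4 lower, and 2 had an unadjusted p under 0.05. They were Crat, at -0.43 ± 0.13 (95% interval -0.73 to -0.14, unadjusted p = 0.00689, adjusted p = 0.262), and Acsl5, at -1.24 ± 0.54 (95% interval -2.41 to -0.07, unadjusted p = 0.0392, adjusted p = 0.478). Crot had 0.71 ± 0.39 (95% interval -0.13 to 1.54). Cold calls made in 1 genotype are therefore not shown to be particular to it.

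Other genes of beta-oxidation and peroxisomes, 48 of 57 listed, moved in both directions. At 4 °C, 12 were lower in KO and 3 higher (2.19% and 3.61% of all probe sets), with a median difference of -0.19. Among probe sets with a mean of at least 4, which most of the 48 have, 5.37% were lower. The lower ones included Acacb, which makes the malonyl-CoA that inhibits Cpt1 (-1.18 ± 0.12, adjusted p = 3.73e-05), Lonp2, a peroxisomal protease (-0.73 ± 0.11), Scp2, a peroxisomal thiolase and sterol carrier (-0.77 ± 0.11), Slc22a5, the carnitine importer (-0.74 ± 0.14, adjusted p = 0.00554), and Acss1, the mitochondrial acetyl-CoA synthetase (-0.93 ± 0.14, adjusted p = 0.00167). The higher ones were Acox2, an oxidase of bile acid intermediates (2.18 ± 0.37, adjusted p = 0.00349), Acsl4, an acyl-CoA synthetase for arachidonate (0.73 ± 0.13), and Pex11g (0.91 ± 0.20). Acox2 was near the floor in WT, at 1.60 to 2.02 on all arrays, below the array medians. In KO it read 3.24 to 4.59 at 4 °C and 1.78 to 3.48 at room temperature. At room temperature, 5 were lower in KO, Acss1 (-1.02 ± 0.14, adjusted p = 0.00249), Ech1 (-0.58 ± 0.10), Acat1 (-0.54 ± 0.10), Hsd17b10 (-0.56 ± 0.11) and Cat (-0.47 ± 0.11), and Pex11g was higher (0.97 ± 0.20). The median was -0.18, and over all probe sets 0.429% were lower and 1.29% higher, with 0.907% lower among those with a mean of at least 4.

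In the cold, 8 of these 48 were lower and 2 higher in KO, with a median of -0.15. Of all probe sets 4.70% were lower and 4.32% higher, and of those with a mean of at least 4, 9.38% were lower. In WT, 9 of the 48 were lower and 2 higher, with a median of -0.12. There the shares were 6.23% and 4.85% of all probe sets, and 12.6% lower with a mean of at least 4. Pex26, a peroxisomal anchor of the import machinery, was lower in KO (-1.54 ± 0.21, adjusted p = 0.000704) and in WT (-1.10 ± 0.21, adjusted p = 0.00449). Abcd4 was also lower, with -1.02 ± 0.17 in KO and -0.91 ± 0.17 in WT. It was listed by its family name, and a part of it in peroxisomal import was not tested. Pecr, a peroxisomal enoyl-CoA reductase, was lower in WT (-1.51 ± 0.27, adjusted p = 0.00373). Acsl4 was higher in the cold in KO (0.87 ± 0.13, adjusted p = 0.00116) and in WT (0.70 ± 0.13, adjusted p = 0.00382).

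Of 16 measured regulators of the pathway, 5 were called lower in KO at 4 °C and 0 higher, against 2.19% and 3.61% of all probe sets and 5.37% lower among those with a mean of at least 4, while at room temperature 0 were called by limma and 2 had an unadjusted p under 0.05. Their median difference was -0.40 at 4 °C and -0.14 at room temperature. Ppara, the receptor PPAR alpha, read 5.48, 5.36 and 5.35 in KO, against 7.19, 6.68 and 6.81 in WT at 4 °C, and 7.42, 6.89 and 7.59 in KO, against 7.14, 7.06 and 7.26 in WT at room temperature. It was lower in KO at 4 °C (-1.49 ± 0.17, adjusted p = 0.000165) and differed by 0.15 ± 0.17 at room temperature (adjusted p = 0.814). Ppargc1a, which encodes PGC-1 alpha, read 9.61, 9.99 and 9.88 in KO, against 11.49, 11.31 and 10.94 in WT at 4 °C, and 8.42, 7.88 and 7.61 in KO, against 8.08, 7.26 and 8.17 in WT at room temperature. It rose in the cold in KO (1.85 ± 0.25, adjusted p = 0.000820) and in WT (3.41 ± 0.25, adjusted p = 2.09e-05), and was lower in KO at 4 °C (-1.42 ± 0.25, adjusted p = 0.00473). Its interaction of -1.56 ± 0.36 was not called (adjusted p = 0.106). The other 3 lower regulators were Esrrg (-0.82 ± 0.15), Pparg (-0.78 ± 0.16) and Ppargc1b (-0.56 ± 0.12).

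After the group means were removed, the 33 genes varied together only in part. Pearson's r over the 12 arrays, a description with no test, had a median of 0.24 over 528 pairs and ranged from -0.74 to 0.96. The closest pairs were Decr2 with Abcd2 (r = 0.96), Cpt2 with Abcd2 (0.95) and Eci2 with Hsd17b4 (0.91), pairs that share arrays and their RMA normalization. Against the muscle mean, the highest values were 0.71 for Crat and 0.70 for Acad9.

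**Figure D5:**
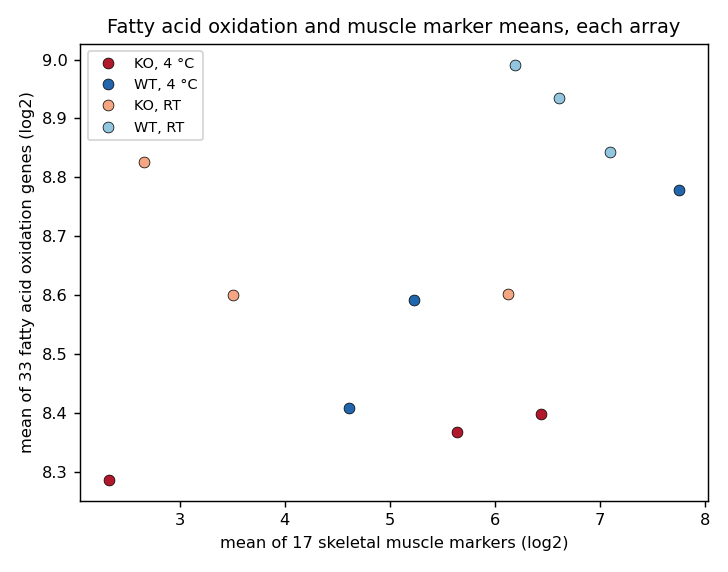
Mean log2 expression of the 33 fatty acid oxidation genes against the mean of the 17 skeletal muscle markers, 1 point per array, by genotype and temperature. The fatty acid oxidation mean is 8.29 to 8.40 in KO and 8.41 to 8.78 in WT at 4 °C, and 8.60 to 8.83 in KO and 8.84 to 8.99 in WT at room temperature, while the muscle mean varies most within the KO groups and WT at 4 °C.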

How the data were processed

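Per the labels' protocols, RNA came from snap-frozen brown fat by Trizol and RNeasy columns, and 100 ng was labelled with biotin for Affymetrix whole-transcript arrays. The deposited table holds log2 values made by the authors with RMA, per the submitters' processing notes, which give no version. RMA corrects background, quantile-normalizes and summarises probe sets, and it compresses differences at both ends of the scale. The table has 41345 probe sets, of which 23521 carry 1 gene symbol, 1814 several and 16010 none in the platform annotation.

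The model, in limma 3.58.1 under R 4.3.3, held 1 mean for each group of the 12 arrays, without a filter, covariate or block, and p-values were adjusted by Benjamini-Hochberg over the 23521 probe sets. The 7 comparisons had 8 residual degrees of freedom, a prior of 4.45 and a median SE of 0.14 between 2 groups. The labels do not say how mice were selected, so a p-value covers only the spread among these arrays, whose number limits the precision. Of 10 other settings and 12 refits without 1 array, effects are given in the closing section. Nothing says that a replicate number is shared between groups, so numbers were not treated as pairs. Same-numbered arrays had residual correlations of -0.18 to 0.16 between groups, and arrays of different numbers were not compared in this way. The genes and lists were chosen with earlier results of these data known. All genes called in any comparison are given on every array, and the other listed genes of the pathway are named from those called, at most 8 per comparison. Promoter sequences are RefSeq's.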

Additional observations from a re-analysis of the deposited data

Results flagged for a closer look

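Among the 33 fatty acid oxidation genes, the 48 other genes of the pathway and its 16 regulators, Ppara was the only gene called for a cold difference that depended on genotype. The interaction, KO cold difference minus WT cold difference, was -1.64 ± 0.25 (SE of the limma fit, adjusted p = 0.0188). The cold difference of Ppara in KO was -1.90 ± 0.17. All 3 KO arrays at 4 °C read 5.35 to 5.48 and the other 9 arrays read 6.68 to 7.59. The Sel1l reading does not check the KO label of those 3 arrays. Left-out arrays and other settings were followed for the 33 genes only, so the Ppara call was not tested in that way.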

How the results depend on the processing

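No called difference of a fatty acid oxidation gene changed sign under any alternative run. Of 43 called values, 401 of 516 refits without 1 array and 341 of 406 refits under other settings kept the call. Of the 65 lost under other settings, 21 were lost with the array of conflicting label placed at 4 °C. For cold in KO, 1 of 6 calls, that of Crat, was kept in every refit. For genotype over both temperatures 4 of 8 were, and for cold over both genotypes 10 of 16. Between genotypes at either temperature and for cold in WT, 0 were. Counts of genes called at room temperature between genotypes (2) were 0 in a fit of the 6 arrays compared, 6 with a trend and robust prior, 5 over probe sets with a mean of at least 4, 1 over all probe sets, 0 with the array of conflicting label at 4 °C, 1 with a replicate block and 0 with the muscle covariate. Between genotypes at 4 °C (4) they were 1 with 6 arrays, 8 with the trend prior, 2 over all probe sets and 2 with the muscle covariate. In the cold in WT (7) they were 3 with 6 arrays, 12 with the trend prior, 11 with the mean of at least 4 and 0 with the conflicting label moved, which also left 1 in KO (6). Over both temperatures (8) the genotype count was 13 with the mean of at least 4 and 5 with the muscle covariate. Without 1 array the counts ran from 0 to 3 at room temperature, 1 to 5 at 4 °C, 3 to 11 for cold in WT, 2 to 8 for cold in KO, 6 to 10 for genotype over both temperatures and 12 to 16 for cold over both genotypes. The interaction count was 0 throughout. The cause of these changes was not tested. With the replicate block, cold in KO gave 4 and cold over both genotypes 14. With median-centred arrays they gave 4 and 12. Across the other settings, the count for cold over both genotypes (16) ran from 12 to 17. The 6-array fit was not run for the interaction and the averages. With 3 arrays per group, the smallest difference called between 2 groups among these genes was -0.38.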
